A study of Homo sapiens with 32 samples.

Results

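The genes described here are those of fibroblast growth factor (FGF) signaling and of the negative feedback on the RAS-ERK pathway that it activates, in cell lines of Ewing sarcoma that carry or lack STAG2. They were chosen by symbol alone, as every FGF, FGFR, Sprouty (SPRY), Spred (SPRED) and ERK-directed dual-specificity phosphatase (DUSP4 to DUSP7) gene. This gave 37 of the 28278 gene symbols in the count tables. They comprised 15 secreted ligands, 3 endocrine ligands, 4 intracellular FGF homologous factors, 4 receptors, 4 Sprouty genes, 3 Spred genes and 4 ERK phosphatases.

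FGF ligands bind receptor tyrosine kinases of the FGFR family, with heparan sulfate or Klotho proteins as partners, and the activated receptors signal through RAS, RAF and MEK to ERK. ERK activity induces its own brakes: Sprouty and Spred proteins restrain the pathway at the level of RAS and RAF, DUSP6 and DUSP7 dephosphorylate ERK in the cytoplasm, and DUSP4 and DUSP5 do so in the nucleus. Transcripts of these feedback genes are therefore widely read as a record of ERK output, and FGF signaling through FGFR1 has been studied as a growth pathway of Ewing sarcoma cells.

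A673, SK-N-MC and A4573 are Ewing sarcoma lines driven by the EWS::FLI1 fusion. STAG2 is a cohesin subunit, STAG1 its paralog, and EZH2 and SUZ12 are subunits of Polycomb Repressive Complex 2, PRC2. All A673 KO clones descend from 1 clone that carries a doxycycline-inducible Cas9 (iCas9) at the AAVS1 locus. That clone without a knockout (WT clone) and the unedited parental line served as controls. Experiment 1 held 2 WT clone, 1 parental and 2 STAG2 KO libraries. Experiment 2 held 2 WT clone, 1 parental, and 3 clones each for STAG2 KO, EZH2 KO and SUZ12 KO. Experiment 3 held 1 WT clone, 1 parental and 3 STAG1 KO libraries. Experiment 4 compared 3 libraries of A673 cells transfected with siRNA against STAG2 with 3 mock-transfected controls. SK-N-MC cells were paired with a STAG2 KO clone, and A4573 cells, which lack functional STAG2, with a knock-in clone (STAG2 KI) in which STAG2 was restored, with 1 library per arm. The labels give the genotype iCas9 for both pairs, whereas the study's methods describe the inducible cassette for A673 and a transfected Cas9 plasmid for the A4573 knock-in. Each KO library is 1 clone, so differences between clones and effects of the deletion are separated only by the number of clones. A STAG2 KO column numbered 5 occurs in both experiment 1 and experiment 2. The sample titles of these experiments share no clone number, and whether both columns are the same clone is not given. The WT clone libraries are repeats of 1 line within and across experiments, and the parental libraries are repeats of another. The p-values rest on the spread between all libraries of a fit. The EZH2 KO and SUZ12 KO tests were fitted on all 12 libraries of experiment 2, so the STAG2 KO clones entered their spread.

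Depth was 15734628 to 20663679 counts in the 22 A673 clone libraries, 29322507 to 32261248 in the 4 libraries of the pairs and 6852340 to 8184632 recovered reads in the knockdown. Levels are given as normalized CPM, counts per 1000000 counts of the library after TMM scaling. STAG2 stood at 254.6 to 358.5 CPM in the controls of experiments 1 and 2. It was 42.2 and 183.0 in the libraries labelled STAG2 KO of experiment 1 and 59.2 to 68.9 in those of experiment 2 (log2 fold change −1.81 ± 0.32, edgeR adjusted p = 0.0042). Knockdown lowered STAG2 by 2.72 ± 0.09 on the log2 scale. EZH2 fell by 1.98 ± 0.20 in EZH2 KO and SUZ12 by 1.90 ± 0.23 in SUZ12 KO. STAG1 was 61.1, 15.0 and 33.0 CPM in the libraries labelled STAG1 KO against 57.4 and 69.1 in their controls, so the first of them was at the control level. STAG2 was 292.8 CPM in SK-N-MC cells and 184.2 in the KO clone, and 34.1 in A4573 cells against 86.9 after knock-in. Transcript can persist in a frameshift clone, so these levels check the labels only in part. Among 8 Ewing sarcoma markers, CD99 was at 0 in every count library although its mean knockdown value was 5120, and the summed level of the list was 923.9 to 1290 CPM in the A673 controls. The 6 markers of other cell types summed to 0.566 to 1.46 CPM there.

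Promoters are shown for the 4 members whose changes carry the findings: FGF1 and SPRY1, which fell in A673 cells without STAG2, and SPRY4 and DUSP6, which were lower without STAG2 in both pairs. Each window runs from 250 bases before to 50 bases after the RefSeq start on GRCh38.p14, and all are printed 5′ to 3′ on the strand of the gene. FGF1 is at chr5:142698021-142698320 and SPRY4 at chr5:142324198-142324497 (both minus strand), DUSP6 at chr12:89352452-89352751 (minus strand) and SPRY1 at chr4:123396545-123396844 (plus strand). Capitals mark GGAA, the core recognised by EWS::FLI1 and other ETS factors, or TTCC, the same core on the opposite strand.
FGF1: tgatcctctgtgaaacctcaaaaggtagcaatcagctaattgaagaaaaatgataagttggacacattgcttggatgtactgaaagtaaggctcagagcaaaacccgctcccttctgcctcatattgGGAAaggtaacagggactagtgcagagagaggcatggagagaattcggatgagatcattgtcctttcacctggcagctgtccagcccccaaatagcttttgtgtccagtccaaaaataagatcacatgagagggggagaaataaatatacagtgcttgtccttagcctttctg
SPRY1: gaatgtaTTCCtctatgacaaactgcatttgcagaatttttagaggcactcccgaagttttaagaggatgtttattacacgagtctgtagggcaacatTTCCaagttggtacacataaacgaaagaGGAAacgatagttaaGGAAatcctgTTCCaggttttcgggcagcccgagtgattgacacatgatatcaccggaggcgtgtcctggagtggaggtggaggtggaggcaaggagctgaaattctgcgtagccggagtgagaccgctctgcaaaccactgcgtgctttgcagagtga
SPRY4: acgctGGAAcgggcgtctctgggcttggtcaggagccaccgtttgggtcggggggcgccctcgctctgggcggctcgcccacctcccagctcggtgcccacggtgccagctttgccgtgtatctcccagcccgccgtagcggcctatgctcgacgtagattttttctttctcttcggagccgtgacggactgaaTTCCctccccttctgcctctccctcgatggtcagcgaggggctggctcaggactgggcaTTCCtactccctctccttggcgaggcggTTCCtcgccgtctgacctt
DUSP6: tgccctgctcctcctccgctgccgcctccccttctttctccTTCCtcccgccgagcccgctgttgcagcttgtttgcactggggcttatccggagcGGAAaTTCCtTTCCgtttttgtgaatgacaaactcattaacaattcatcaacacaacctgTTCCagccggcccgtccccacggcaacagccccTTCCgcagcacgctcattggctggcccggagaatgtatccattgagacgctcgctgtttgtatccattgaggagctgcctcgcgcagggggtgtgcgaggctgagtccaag

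The FGF1 window held 1 such core, SPRY1 5, SPRY4 4 and DUSP6 6. A single GGAA on either strand is common: 95.5% of 27305 RefSeq promoters of this length held one, as did 22 of the 27 member promoters in the table. The tandem GGAAGGAA was in 3.58% of all promoters and in 0 of the 27, and the ETS site CCGGAAGT in 4.44% and 0 of the 27. The AP-1 site TGANTCA, which reads the same on both strands, was in 7.76% of all promoters and in 1 member promoter, that of SPRED3. These matches describe the windows only.

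In A673 cells with STAG2, the feedback genes DUSP6 and SPRED2 and the receptor FGFR1 stood highest among the members. Per kilobase of exon, DUSP6 had the highest level of all members, 61.1 ± 10.7 CPM per kb (SD, n = 8 control libraries of 3 experiments), with SPRED2 at 19.1 ± 1.89. FGFR1 led the receptors at 11.1 ± 1.58, above FGFR4 at 5.46 ± 1.86 and FGFR3 at 1.70 ± 0.976, while FGFR2 was at 0.0189 ± 0.0139. The ranges of FGFR1 and FGFR4 overlapped (8.30 to 13.3 and 4.18 to 9.86). The most abundant secreted ligand was FGF2 at 4.17 ± 0.71, followed by FGF18 at 0.795 ± 0.323 and FGF1 at 0.753 ± 0.402, whose ranges overlapped. The homologous factor FGF11, which is not secreted and does not act as a receptor ligand, was at 6.38 ± 0.946, but it shares most of its exonic bases with other genes. Of the 37 members, 12 stayed under 10 counts in every A673 clone library: FGF3, FGF4, FGF5, FGF6, FGF7, FGF8, FGF9, FGF16, FGF17, FGF20, FGF23 and SPRY3.

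SPRY3 had at most 1 count in any A673 clone library and 2 in the pairs, and 0 to 3 reads per knockdown library. GENCODE 44 lists it on X. It is not among the 17 protein-coding genes of the count tables that this annotation lists on both X and Y. All 17 had at most 3 counts in every count library. Of these, 10 nevertheless had in the knockdown a mean of at least 10 normalized reads. For those 10 genes, absence from the count tables cannot be read as absence of RNA, and whether this extends to SPRY3 was not tested. FGF11 and SPRED3 showed the opposite of those 10 genes, with at most 1 read per knockdown library, although both were tested in the clones. By the study's methods, libraries did not keep strand. As 9 of the 37 members share exonic bases with another gene, reads there cannot be told apart. FGF11 shares 4169 of its 5080 exonic bases with 3 other genes (82.1%), FGF14 4810 of 14646 with 3 others, ITGBL1 among them (32.8%), and DUSP6 1105 of 3859 with an opposite-strand transcript (28.6%). FGF2 shares 804 bases with NUDT6, and the other 5 members share 33 to 525.

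In STAG2 KO clones, FGF1 and SPRY1 fell while SPRED3 and SPRY2 rose. FGF1 is a broadly acting ligand that binds all FGF receptors, SPRY1 and SPRY2 are ERK-induced inhibitors, and SPRED3 is the divergent Spred family member. Of 20 members that passed the count filter, 4 were called at an adjusted p under 0.05 (edgeR), 20% of those tested against 12.4% of all 13574 genes tested. The other 17 members were not tested. By direction, 2 of 20 were higher, against 6.67% of all genes, and 2 of 20 lower, against 5.76%.

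FGF1 stood at 4.002 and 4.21 CPM in the WT clone and 1.09 in the parental library of experiment 1, against 0.115 and 0.112 in the STAG2 KO libraries. In experiment 2 it was 3.29 and 2.36 in the WT clone and 1.99 in the parental line, against 0.663, 0.420 and 0.417 in the KO clones. Every KO library was below every control. The log2 fold change was −3.10 ± 0.55 (adjusted p = 0.00445), and it was −4.68 (adjusted p = 0.0192) in experiment 1 alone and −2.29 (0.0340) in experiment 2 alone. Both WT clone libraries of experiment 1 differed by little more than sampling noise, and with them summed as 1 library the adjusted p was 0.0555 in experiment 1 alone and 0.00877 over both experiments. Each KO library of experiment 1 rested on 2 counts.

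SPRY1 was 7.77, 8.32 and 5.55 CPM in the controls of experiment 1 and 1.96 and 0.956 in the KO libraries. In experiment 2 it was 6.51, 7.59 and 7.15 in the controls and 1.05, 1.05 and 4.75 in the KO clones, the last being clone 5. The groups did not overlap, but clone 5 lay well above the other KO libraries. The log2 fold change was −1.87 ± 0.45 (adjusted p = 0.0193). It was −2.49 (9.62e-05) without clone 5, and −1.56 with an adjusted p of 0.195 in experiment 2 alone. Summing both WT clone libraries of experiment 1 gave an adjusted p of 0.0400.

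SPRED3 was 7.89, 6.69 and 2.64 CPM in the controls of experiment 1 against 15.99 and 32.4 in the KO libraries, and 2.72, 1.98 and 2.99 in those of experiment 2 against 9.18, 6.89 and 8.78. Within each experiment the groups did not overlap, whereas across both the lowest KO value lay below the highest control. The log2 fold change was +1.91 ± 0.30 (adjusted p = 0.0022), and it was called in each experiment alone (0.0341 and 0.0316), though not in experiment 1 with the WT clone libraries summed (0.0823). SPRY2 was 5.45, 5.32 and 8.24 against 14.7 and 11.4, and 8.50, 9.37 and 8.81 against 20.8, 16.5 and 6.68, where the value below the controls was again clone 5. Its log2 fold change of +0.90 ± 0.26 only just passed (adjusted p = 0.0464), and leaving out any 1 library other than clone 5 ended the call (adjusted p 0.0518 to 0.149), as did summing the WT clone libraries of experiment 1 (0.1001).

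**Figure D1:**
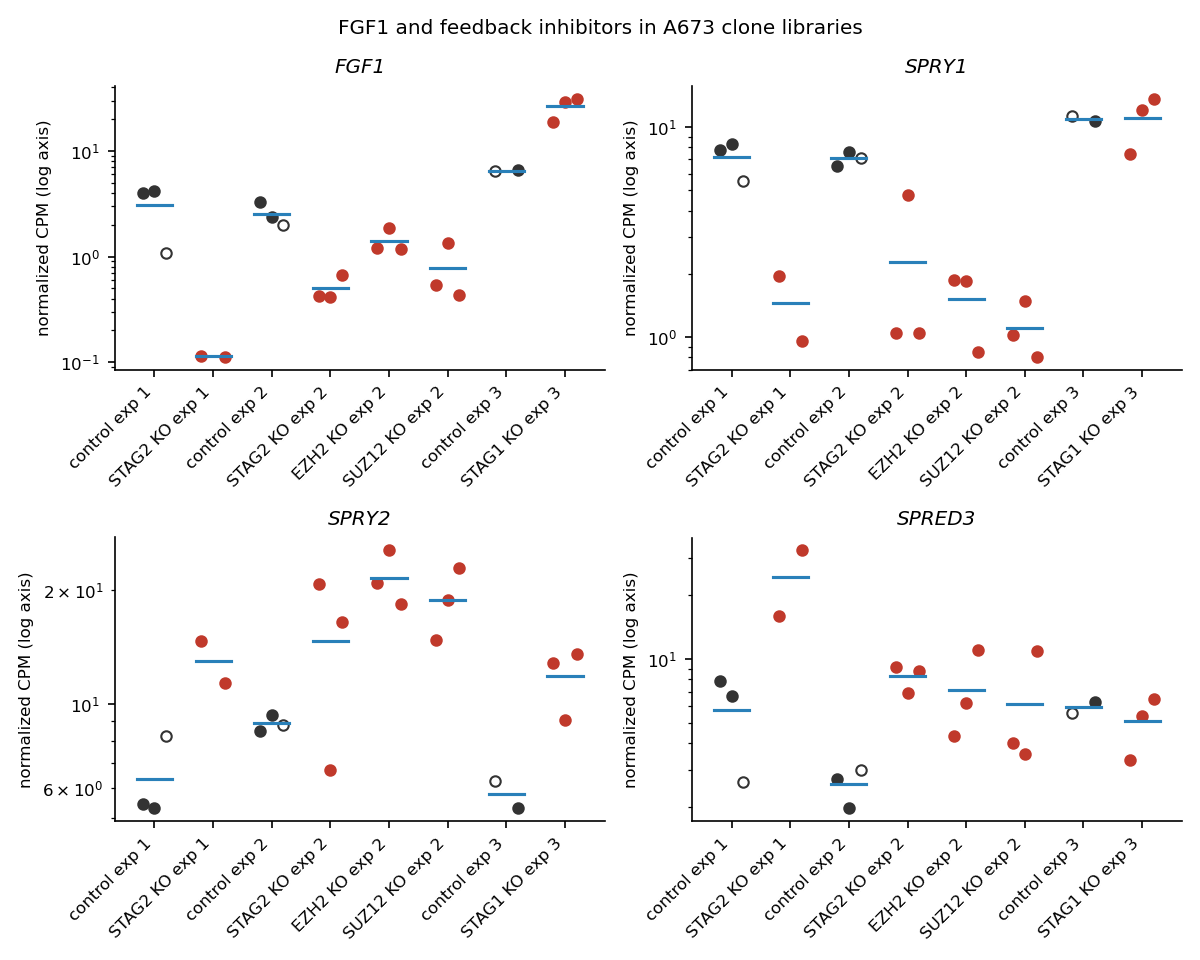
FGF1, SPRY1, SPRY2 and SPRED3 in the 22 A673 clone libraries of experiments 1 to 3, as normalized CPM on a log axis. Filled black points are WT clone libraries, open points parental, red points KO clones, and the blue bar is the group mean. FGF1 lies below the controls of the same experiment in all 5 STAG2 KO libraries and above them in all 3 libraries labelled STAG1 KO, of which library 1 (18.9) had STAG1 at the control level, and the high SPRY1 point of STAG2 KO in experiment 2 is clone 5 at 4.75.

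The 16 members tested but not called in STAG2 KO ranged from −0.91 (FGF18) to +0.82 (DUSP7) in log2 fold change. DUSP6, the most abundant member, was at −0.44 (adjusted p = 0.0931) and FGFR1 at −0.35 (0.0962). In experiment 1 alone DUSP7 (+1.47, adjusted p = 0.0101), SPRED2 (+0.63, 0.0341), FGF2 (−1.27, 0.0125) and FGF14 (−1.84, 0.0194) were also called. With its WT clone libraries summed, 2 members were called there, DUSP7 (+1.42, 0.0438) and FGF2 (−1.29, 0.0499), and 703 genes in all against 3663. In experiment 2 alone FGF13 was called at +0.66 (0.0475), against −0.68 (0.163) in experiment 1. Over both experiments the summed libraries gave 3 members and 1154 genes. Clone 5 of experiment 2 had the largest influence: without it 8 members were called and 4048 genes in all, against 1687 with it. FGFR2 was too low to be tested, with 30 counts over the 6 control libraries and 1 over the 5 KO libraries (ratio 25.7, 95% exact counting interval 4.27 to 1048). Such intervals cover counting error only.

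The knockdown compared transfected cells rather than clones. FGF1 and SPRY1 fell there as well, DUSP6 fell slightly and DUSP5 rose. Values are the deposited normalized reads, tested by limma on log2(value + 1). Of 18 members tested 4 were called (22.2%), close to the 20.5% of all 12060 genes, and 19 were not tested. The 1 higher compares with 9.54% of all genes and the 3 lower with 11%. FGF1 went from 26.7, 36.5 and 24.6 to 9.27, 8.88 and 4.83 normalized reads. The log2 fold change was −1.83 ± 0.33 (adjusted p = 0.000213). SPRY1 went from 50.5, 43.8 and 57.1 to 31.5, 22.2 and 35.7 (−0.76 ± 0.22, adjusted p = 0.0148). The groups did not overlap for either gene. The SPRY1 call was lost without control 2 (adjusted p = 0.0626) and without siSTAG2 library 1 (0.0831).

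DUSP6 fell from 2585, 2790 and 2428 to 2134, 2189 and 2266 normalized reads, a log2 change of −0.24 ± 0.06 (adjusted p = 0.00446). DUSP5 rose from 166.8, 125.0 and 134.8 to 190.1, 211.9 and 180.6 (+0.45 ± 0.12, adjusted p = 0.00707). Neither gene's groups overlapped, and both shifts were small beside that of FGF1. SPRY2 (+0.08), SPRY4 (+0.17) and FGFR1 (−0.17) were not called. FGFR2 had 1, 2 and 1 reads in the controls and 0 in each siSTAG2 library, too few to compare.

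**Figure D2:**
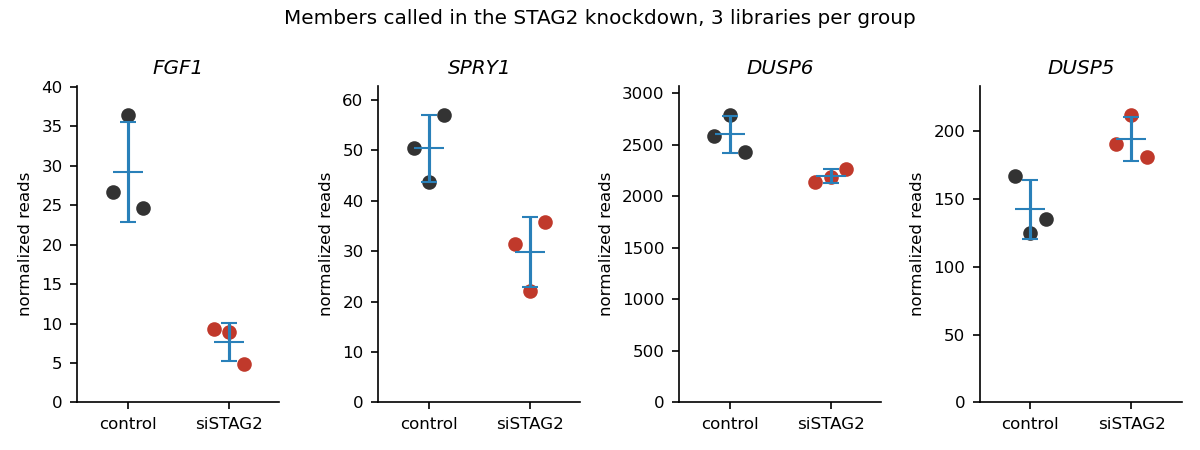
FGF1, SPRY1, DUSP6 and DUSP5 in A673 cells after mock transfection (control, black) or siSTAG2 (red), 3 libraries each, in normalized reads on linear axes from 0. Blue marks are mean ± SD, and the groups do not overlap in any panel, with FGF1 dropping from at least 24.6 to at most 9.27.

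In EZH2 KO and SUZ12 KO cells FGFR2 and the ligands FGF10 and FGF18 rose from low levels while FGFR1, SPRY1 and SPRED1 fell. Of the 4 receptors 2 were called in each KO. EZH2 KO called 10 of 23 members tested (6 higher, 4 lower), 43.5% against 15.7% of all 15130 genes. SUZ12 KO called 13 of 23 (7 higher, 6 lower), 56.5% against 20.6%. Over all genes 12% were higher and 3.69% lower in EZH2 KO, and 14.7% and 5.87% in SUZ12 KO. The remaining 14 members were not tested. FGFR2, FGF10 and FGF19 had at most 5 counts in each control library and passed the count filter only through KO libraries. Their part in the shares called is therefore not independent of that filter, which was the same for all genes. These comparisons share their 3 control libraries with each other and with STAG2 KO in experiment 2, so they are not independent of one another.

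FGFR1 was 195.9, 182.4 and 165.0 CPM in the controls, 83.6, 103 and 90.9 in EZH2 KO and 75.7, 60.1 and 83.6 in SUZ12 KO. Every KO library was below every control. The log2 fold changes were −0.88 ± 0.14 (adjusted p = 0.00206) and −1.24 ± 0.14 (0.000224). FGFR2 was 0.283, 0.0638 and 0.277 in the controls, 2.44, 6.46 and 3.22 in EZH2 KO and 14.5, 12.8 and 6.66 in SUZ12 KO. It rose by 4.30 ± 0.63 (adjusted p = 0.00196) and 5.76 ± 0.65 (0.000393) on the log2 scale, again without overlap. FGFR3 and FGFR4 were not called in either KO.

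Among the ligands, FGF18, which acts in bone and cartilage development, was 1.87, 2.17 and 2.77 CPM in the controls, 7.37, 5.64 and 8.44 in EZH2 KO and 11.6, 11.3 and 9.07 in SUZ12 KO. It rose by 1.74 ± 0.40 (adjusted p = 0.0129) and 2.30 ± 0.40 (0.00217). FGF10, a mesenchymal ligand that signals to epithelium through an FGFR2 isoform, had 0, 1 and 0 counts in the controls, 16, 5 and 4 in EZH2 KO and 15, 14 and 21 in SUZ12 KO. The ratios of summed counts were 21.3 (95% exact counting interval 3.48 to 873.3) and 41.8 (7.17 to 1685), and the adjusted p values 0.0264 and 0.00611. The endocrine ligand FGF19, a gut hormone that restrains bile acid synthesis, had 1, 2 and 5 counts in the controls, 3, 3 and 2 in EZH2 KO and 16, 54 and 18 in SUZ12 KO. It was called in SUZ12 KO (+3.19 ± 0.66, adjusted p = 0.00552) and not in EZH2 KO (−0.13).

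Tested directly, SUZ12 KO against EZH2 KO gave 0 of 23 members by edgeR (0.00661% of all genes, a single gene) and 0 by DESeq2, with 6 of 23 at an unadjusted p under 0.05. FGF19 was +3.31 ± 0.66 there with an adjusted p of 0.433. A difference between the PRC2 subunits was therefore not shown for any member.

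Among the ligands that fell, FGF2 was 23.0, 27.2 and 24.1 CPM in the controls and 11.5, 7.35 and 7.84 in SUZ12 KO (−1.40, adjusted p = 0.0377). FGF1 was lower in SUZ12 KO too, at 0.533, 1.35 and 0.429 (−1.63, 0.0308), and was not called in EZH2 KO at 1.20, 1.85 and 1.19. Neither gene's SUZ12 KO values overlapped the controls. The homologous factor FGF12 rose in both (+1.36, adjusted p = 0.0227, and +1.21, 0.0294), and FGF13 fell in EZH2 KO from 28.7, 30.4 and 28.8 to 17.4, 12.2 and 23.0 (−0.65, 0.0493).

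Of the feedback genes, SPRY1 was 1.87, 1.85 and 0.853 CPM in EZH2 KO and 1.02, 1.49 and 0.805 in SUZ12 KO, below the controls of 6.51 to 7.59 in every library (−2.13 ± 0.59, adjusted p = 0.0312, and −2.60 ± 0.60, 0.0103). SPRED1, whose loss causes Legius syndrome, was 24.8, 26.2 and 27.0 in the controls, 14.5, 15.5 and 9.34 in EZH2 KO and 9.31, 7.08 and 11.97 in SUZ12 KO (−0.90 ± 0.27, 0.0450, and −1.39 ± 0.28, 0.00461). SPRY2 went the other way, at 20.9, 25.5 and 18.4 in EZH2 KO and 14.7, 18.8 and 22.9 in SUZ12 KO against 8.50 to 9.37 (+1.37 ± 0.34, 0.0196, and +1.15, 0.0324). SPRED3 rose in EZH2 KO (+1.56, 0.0432). In SUZ12 KO, DUSP7 rose from 27.1, 27.0 and 34.0 to 50.5, 53.2 and 51.2 (+0.88, 0.0256) and DUSP5 went from 19.8, 18.3 and 31.9 to 7.61, 9.15 and 15.7 (−1.04, 0.0416). DUSP6 was not called in either KO (+0.03 and −0.27).

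**Figure D3:**
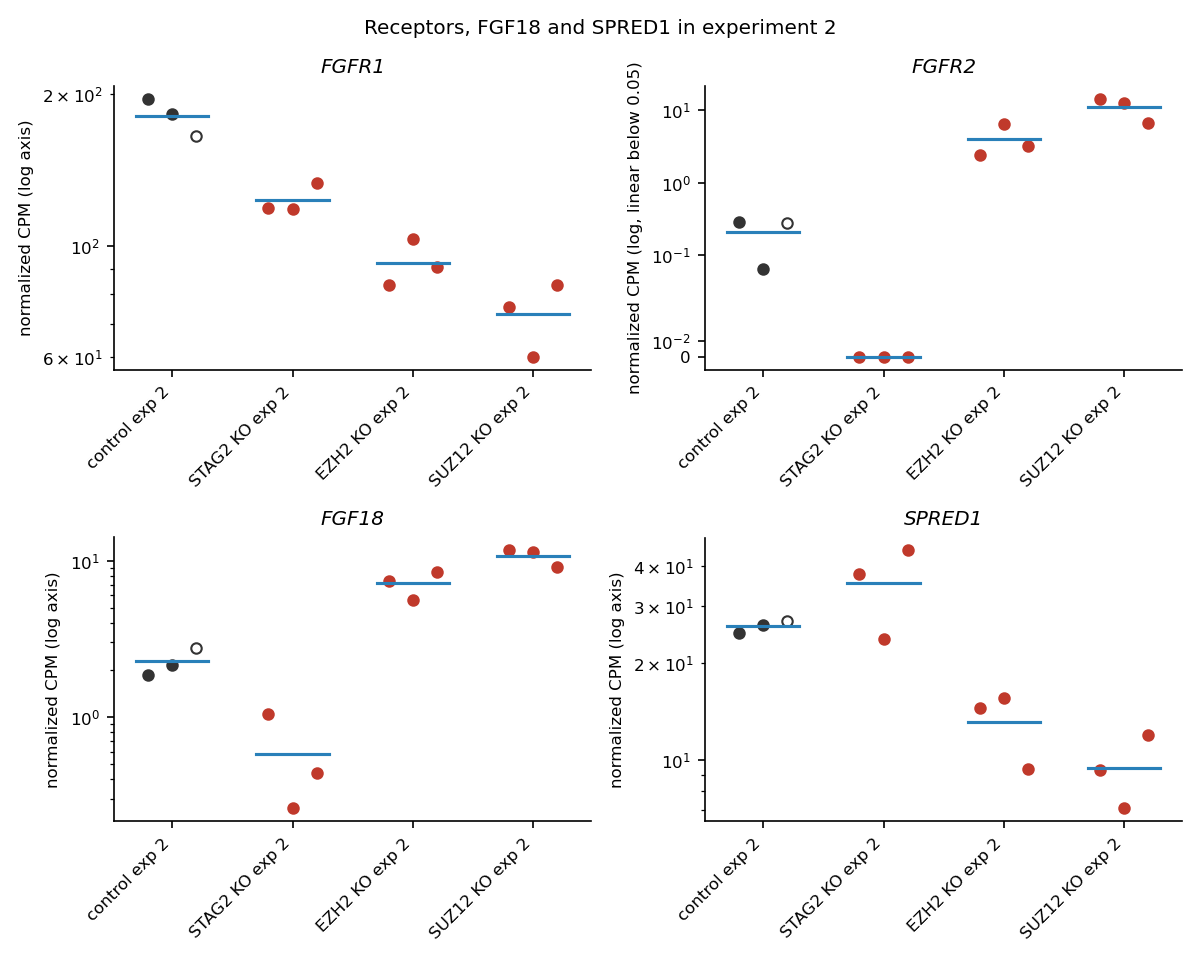
FGFR1, FGFR2, FGF18 and SPRED1 in the 12 libraries of experiment 2 as normalized CPM (log axes, FGFR2 linear below 0.05). Black points are WT clone, open points parental, red points KO clones and blue bars means. FGFR1 falls from at least 165.0 to at most 103 in the PRC2 KO clones, whereas FGFR2 rises from at most 0.283 to at least 2.44.

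With 3 KO libraries, many calls were lost when 1 library was left out, and the calls over the whole table changed as well. Genes called in all went from 2377 to between 1169 and 1760 in EZH2 KO. In SUZ12 KO they went from 3112 to between 1874 and 3238. FGFR1 and FGFR2 in both KOs, and FGF10, FGF18, FGF19, SPRED1 and SPRY1 in SUZ12 KO, kept their calls under all 10 alternatives. Of these, FGFR2, FGF10 and FGF19 had so few counts in the controls that a fall could not have been called. In EZH2 KO, SPRY1 (adjusted p up to 0.0959) and SPRED1 (up to 0.129) lost the call without any 1 of the 6 libraries. FGF18 lost it without WT clone 1 (0.0716) or 2 (0.0628), and FGF10 without EZH2 KO 1 (0.0870), WT clone 1 (0.105) or the parental library (0.0953). SPRY2 lost it without EZH2 KO 2 or any control (0.0672 to 0.0825), FGF12 without any library but EZH2 KO 3 (up to 0.0932), FGF13 without any but EZH2 KO 3 (up to 0.142) and SPRED3 without any but EZH2 KO 1 (up to 0.156). In SUZ12 KO, FGF2 lost the call without any 1 library (up to 0.134). DUSP5 did so without any but SUZ12 KO 3 (up to 0.155), DUSP7 without any but the parental library (up to 0.101), FGF12 without any but SUZ12 KO 2 (up to 0.110) and SPRY2 without any but SUZ12 KO 1 (up to 0.108). FGF1 did so without SUZ12 KO 1 or 3 or either WT clone library (0.0703 to 0.115).

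The 6 markers of other cell types summed to 2.01 to 2.22 CPM in EZH2 KO and 1.99 to 6.58 in SUZ12 KO, with 2 or 3 of the 6 at 0, CD3E and MYOG among them. PECAM1 was called higher in EZH2 KO (+1.95) and both PECAM1 (+2.25) and EPCAM (+3.52) in SUZ12 KO, and their part in these results was not tested. In bulk RNA, fewer cells of a type and less RNA per cell cannot be told apart.

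In the libraries labelled STAG1 KO, FGF1 was higher than in the controls, whereas it had been lower in STAG2 KO. FGF1 was 6.45 and 6.60 CPM in the controls of experiment 3 and 18.9, 29.1 and 31.1 in the libraries labelled STAG1 KO, all above the controls (+2.01 ± 0.25, adjusted p = 0.0239). The first of these, at 18.9, is the library in which STAG1 stood at the control level. Of 20 members tested 4 were called, 20% against 5.27% of all genes (2 higher against 2.77% and 2 lower against 2.5%), and 3 of them were intracellular homologous factors, which bind voltage-gated sodium channels. FGF14 went from 8.39 and 10.9 to 20.1, 21.6 and 24.2 (+1.19 ± 0.18, adjusted p = 0.0289). FGF13 went from 38.5 and 38.2 to 20.6, 12.1 and 19.3 (−1.15 ± 0.23, 0.0480), and FGF11 from 37.1 and 35.0 to 23.6, 25.5 and 23.4 (−0.58 ± 0.11, 0.0412). None of these groups overlapped, but the genes were picked as called, so this adds no separate support. FGF11 and FGF14 share exonic bases with other genes, as given above, and the origin of those reads was not tested. No Sprouty, Spred or DUSP member was called, and SPRY1 was at +0.01.

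These calls need both controls. Without the parental library or without the WT clone library, 0 genes were called in the whole table, and the adjusted p of FGF1 was 0.246 or 0.141, although its fold change held (+1.99 and +2.04). Without the KO library in which STAG1 stood at the control level, FGF1 was +2.21 (adjusted p = 0.0149) and 4 members were called. Without KO library 7, only FGF1 was called, and without KO library 5, FGF1 and FGF13. Between the WT clone and the parental line, which differ in clonal derivation and the iCas9 insertion, 1 of 20 members was called (5% against 2.72% of all genes, of which 1.76% were higher and 0.96% lower), FGF14 at +0.64 ± 0.13 (adjusted p = 0.0365), with the same limit on its reads. That call was lost without any 1 library of experiment 2 or of experiment 1 (0.0915 to 0.129).

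The STAG2 and STAG1 effects, which share no library, differed for 2 of 20 members (10% against 6.11% of all genes, with 1 higher against 2.36% and 1 lower against 3.75%). FGF1 differed by −5.11 ± 0.78 on the log2 scale (adjusted p = 0.00193), holding under all 20 alternatives. SPRED3 differed by +2.09 ± 0.51 (0.0251), a call lost without STAG1 KO library 1 (0.0681) or 5 (0.0563), the parental library (0.106) or the WT clone library of experiment 3 (0.115). For SPRY1 the difference was −1.92 and not called.

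**Figure D4:**
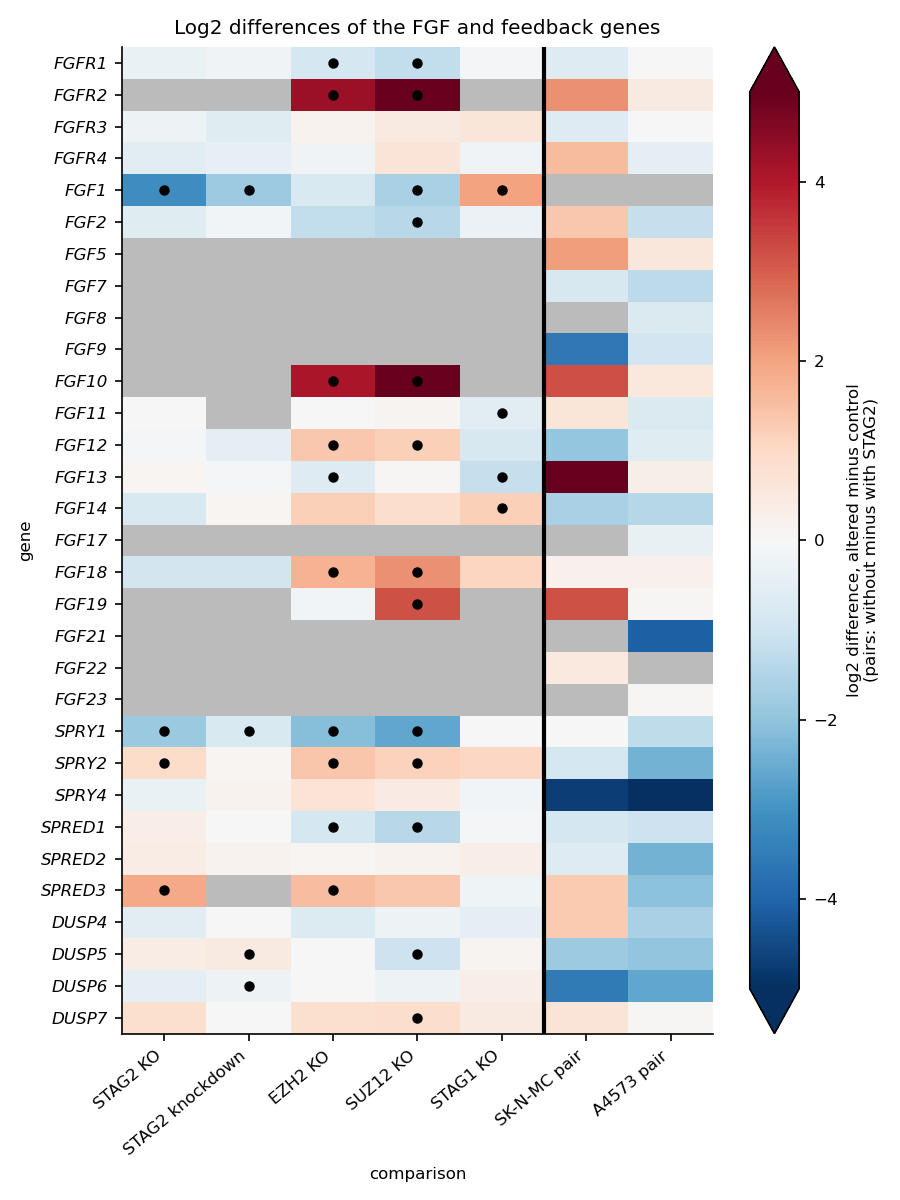
Log2 differences of the 31 members measured in at least 1 comparison, with genes as rows and comparisons as columns. Red is higher and blue lower in the altered cells (in the pairs, without minus with STAG2), gray means not tested or under the count minimum, and black dots mark an adjusted p under 0.05. The pairs, right of the black line, have 1 library per arm and no test. FGF1 is blue and called in STAG2 KO and knockdown and red in STAG1 KO, and the feedback genes in the lower rows are blue in the A4573 column except DUSP7.

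The isogenic pairs measured the same members in other lines. With 1 library per arm there is no replicate check, and differences are described by counts with 95% exact counting intervals. In A4573 cells, nearly the whole feedback group was lower without STAG2. Of 29 members compared, 13 were past 2-fold, all lower (44.8% against 21.8% of all genes, with 14.1% lower and 7.76% higher). Of the 10 feedback genes compared, 9 were past 2-fold lower, with a median log2 difference of −1.998 against 0.0015 over all genes, and DUSP7 was the exception at 1319 counts without and 1328 with STAG2.

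SPRY4 showed the largest difference, with 1 count without STAG2 and 955 with it (ratio 915.8, interval 164.0 to 36211). DUSP6 went from 624 to 3968 counts with STAG2 (ratio 6.10, 5.60 to 6.65), SPRY2 from 295 to 1596 (5.19, 4.58 to 5.89) and SPRED2 from 569 to 3077 (5.19, 4.74 to 5.68). SPRED3 (4.24), DUSP5 (3.96), DUSP4 (3.14), SPRY1 (2.44) and SPRED1 (2.03) followed. In A673 clones, SPRED3 and SPRY2 had gone the other way. Of the ligands, FGF21 had 1 count without and 49 with STAG2 (47.0, 8.05 to 1893), FGF14 was lower by a ratio of 2.75 and FGF2 by 2.24. FGF7, with 2 and 8 counts, had an interval that includes no difference (0.766 to 37.1). None of the 4 receptors passed 2-fold, and FGFR1 had 5532 and 5841 counts.

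In SK-N-MC cells SPRY4 and DUSP6 were again lower without STAG2, but the feedback group did not move together. Of 26 members compared, 15 were past 2-fold, 57.7% against 21.6% of all genes. Of these 9 were higher and 6 lower (10.2% and 11.4% of all genes). SPRY4 had 14 counts without and 447 with STAG2 (ratio 29.6, 17.5 to 54.6), DUSP6 106 and 1365 (11.9, 9.79 to 14.7) and DUSP5 106 and 408 (3.57, 2.87 to 4.46). DUSP4 (26 and 10 counts) and SPRED3 (101 and 43) were higher without STAG2, and SPRY1 had 15 and 16 counts. Over the 10 feedback genes compared, 3 were past 2-fold lower and 2 higher, with a median log2 difference of −0.75.

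**Figure D5:**
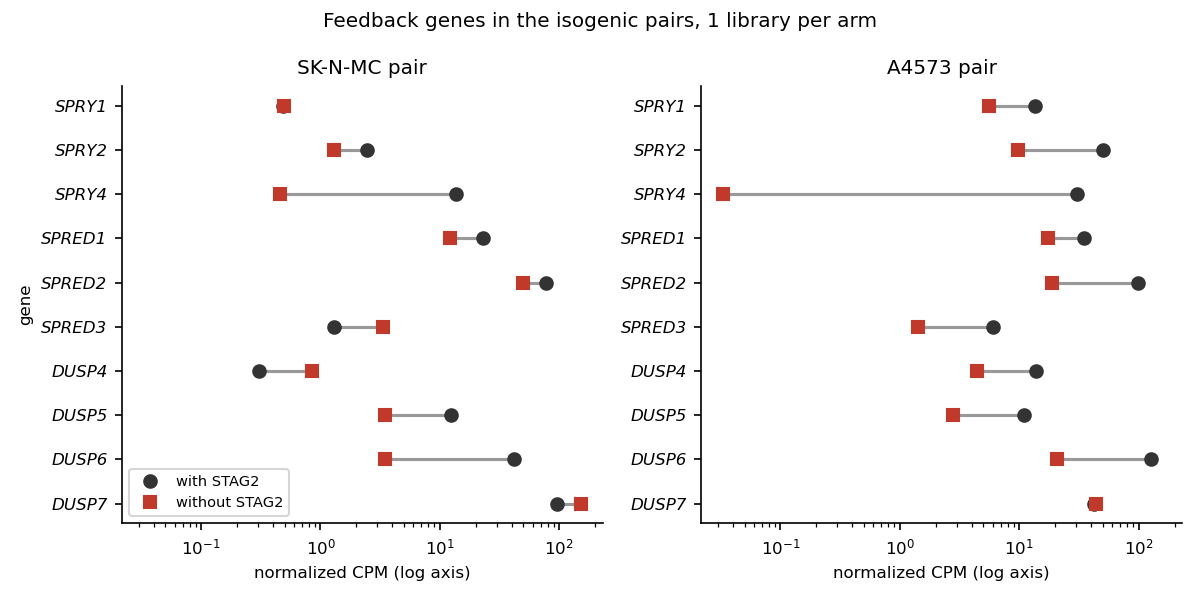
The 10 feedback genes compared in SK-N-MC and A4573 cells with STAG2 (black circles) and without (red squares), as normalized CPM on a log axis, 1 library per point. In A4573 every gene but DUSP7 is lower without STAG2, and SPRY4 shows the longest line in both panels.

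Receptors and ligands in SK-N-MC shifted in both directions. FGFR4, a receptor for FGF19, had 2164 counts without STAG2 and 768 with it (ratio 3.04, 2.80 to 3.31). FGF19 itself had 303 and 34 (9.61, 6.73 to 14.1). FGF10 had 156 and 16 (10.5, 6.28 to 18.9) and FGFR2 21 and 3 (7.55, 2.26 to 39.5). FGF13, an X-linked homologous factor, had 203 and 3 (73.0, 24.6 to 357). FGF5 (5.39, 2.21 to 15.9) and FGF2 (2.73, 1.52 to 5.10) were higher too. FGF9 had 36 counts without STAG2 and 480 with it (12.4, 8.80 to 17.9), FGF12 77 and 325 (3.91) and FGF14 41 and 140 (3.16). FGF1, the ligand that fell in A673, had 0 and 6 counts here and 0 and 3 in A4573, and could be compared in neither pair.

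The KO arm of SK-N-MC also carried markers of other cell types. PTPRC, the leukocyte antigen CD45, had 1776 counts against 99 and EPCAM, an epithelial adhesion molecule, 286 against 27, and the 6 markers summed to 67.8 CPM against 4.22, with 2 and 1 of the 6 at 0. Ewing sarcoma markers summed to 1152 and 1409 CPM. In the A4573 pair the other-cell markers summed to 0.730 CPM without and 2.01 with STAG2, with 3 and 5 of the 6 at 0. The Ewing sarcoma markers summed to 876.2 and 1545. Of the 7 compared, 1 was past 2-fold higher without STAG2 (CCK) and 1 lower (FCGRT). The part of either list in the differences of the pairs was not tested.

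The rest of the pathway gave a wider view of the same libraries. In A4573, 14 of 18 ERK-responsive genes compared were past 2-fold lower without STAG2 (77.8% against 21.8% of all genes past 2-fold) and 0 higher, with a median log2 difference of −2.61. EGR3 had 8 counts without and 4259 with STAG2, FOS 53 and 13300, and EGR1 252 and 37825. These are immediate-early genes that ERK induces within minutes of stimulation. In SK-N-MC 6 of 19 were lower and 3 higher (47.4% against 21.6%), with the ETS factor ETV5 lower (83 and 1023 counts) and EGR1 higher (2288 and 536). In A673, 4 of 19 were called in STAG2 KO (21.1% against 12.4% of all genes; 1 higher, 3 lower, among them PHLDA1 at −1.59 and EGR2 at −1.54). In the knockdown 10 of 17 were called (58.8% against 20.5%; 8 higher, 2 lower, with EGR2 at −1.12, FOSL1 at +1.01 and EGR1 at +0.94). In STAG1 KO 5 of 20 were called (25% against 5.27%; 4 higher, with FOSB at +2.64 and FOS at +2.21). In each PRC2 KO 2 of 20 were called, both higher, and this 10% lay under the 15.7% (EZH2 KO) and 20.6% (SUZ12 KO) of all genes.

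Of 23 RAS-ERK cascade genes, 4 were called in STAG2 KO (17.4% against 12.4% of all genes), where the FGFR adaptor GAB1 fell by 1.33. In EZH2 KO 1 was called (4.35% against 15.7%), in SUZ12 KO 2 (8.7% against 20.6%) and in STAG1 KO 1 (4.35% against 5.27%), all below the share of all genes. In the knockdown 4 of 22 were called (18.2% against 20.5%), GAB1 at −0.73 among them, and GAB1 was at −1.64 in the SK-N-MC pair. Past 2-fold were 3 of 23 in SK-N-MC (13% against 21.6%) and 1 of 23 in A4573 (4.35% against 21.8%).

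Of the co-receptors and matrix partners, 6 of 19 were called in STAG2 KO (31.6% against 12.4% of all genes), 6 of 22 in EZH2 KO (27.3% against 15.7%) and 7 of 22 in SUZ12 KO (31.8% against 20.6%). In STAG1 KO 2 of 19 were called (10.5% against 5.27%) and in the knockdown 6 of 13 (46.2% against 20.5%). They were past 2-fold for 13 of 24 in SK-N-MC, 11 of them higher (54.2% against 21.6%), and for 7 of 23 in A4573 (30.4% against 21.8%). Other feedback regulators, such as further dual-specificity phosphatases, were called for 4 of 9 in STAG2 KO (44.4% against 12.4%), with DUSP8 at +1.49 and DUSP16 at +1.16. The count was 4 of 10 in EZH2 KO (40% against 15.7%), 3 of 10 in SUZ12 KO (30% against 20.6%), 0 of 9 in STAG1 KO (against 5.27%) and 2 of 8 in the knockdown (25%, near the 20.5% of all genes). In the pairs 4 of 11 in SK-N-MC (36.4% against 21.6%) and 3 of 9 in A4573 (33.3% against 21.8%) were past 2-fold, the latter all lower, with DUSP8 at −3.02 and DUSP1 at −2.51.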

How the data were processed

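By the study's methods, libraries were oligo(dT)-primed with template switching, non-directional and sequenced on a NextSeq 550. The knockdown columns carry the tag FWD in their names, which the sources used here do not explain. Whether the knockdown libraries were prepared in the same way was not tested. Reads were aligned by the authors to hg38 with TopHat 2.0.0, which ran Bowtie (version 0.12.7) together with version 0.1.16 of SAMtools, per the submitters' processing notes and the study's methods. How reads were assigned to genes is not given in the sources used here. The authors deposited raw gene counts for the A673 clones and the pairs. For the knockdown the authors deposited normalized values, treated as a signal. In every column 100% of them were whole multiples of a common step (tolerance 0.001), so reads were recovered for depth and an edgeR alternative.

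Counts were tested with edgeR 4.0.16 (TMM, filterByExpr, quasi-likelihood) on R 4.3.3, with the experiment as a term in STAG2 KO, and Benjamini-Hochberg adjustment over all genes tested. Calls are at an adjusted p under 0.05. The knockdown was tested with limma 3.58.1 on log2(value + 1) for genes with a mean of at least 10, which understates the change of low genes. For the pairs, log2 CPM values used 2 as the prior count and were compared for genes with at least 10 counts over the pair, and called past 2-fold. Ratios quoted for the pairs are of library-scaled counts. DESeq2 1.42.0, other scaling, other filters and each library left out were alternatives. The scripts were tested on simulated data. Per-kilobase levels used GENCODE 44 exon lengths, and promoters came from RefSeq GRCh38.p14.

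STAG2 KO columns of experiment 1 and STAG1 KO columns carry names that give the group only. They are numbered here as in their column names. The WT clone libraries of experiment 1 differed little more than sampling noise (mean chi-square per gene 1.31, against 8.82 to 130.6 in the other pairs of replicates), and were also summed as 1, an alternative chosen after seeing the data. Named genes are every member called or past 2-fold, the most abundant others, and the called genes of each other list with the largest changes. The members, lists and tests were chosen with earlier results of these data known.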

Additional observations from a re-analysis of the deposited data

Results flagged for a closer look

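Among 40 groups of values examined for a sample far from the others, 3 stood apart, and chance flags about 1 in 20. FGFR3 was 18.5 CPM in the parental library of experiment 2, where the other 5 STAG2-proficient libraries of experiments 1 and 2 lay between 4.36 and 6.48. FGFR4 was 47.4 CPM in the parental library of experiment 1, with the nearest other library at 29.1 and the lowest at 20.1. SPRY1 was 4.75 CPM in STAG2 KO clone 5 of experiment 2, with the nearest other KO library at 1.96 and the lowest at 0.956.

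The effects in STAG2 KO and in the libraries labelled STAG1 KO differed for FGF1 by −5.11 and for SPRED3 by 2.09 on the log2 scale, by a test of the difference itself. FGF1 was lower in 5 of 5 STAG2 KO libraries and higher in 3 of 3 libraries labelled STAG1 KO than the controls of the same experiment, but in the first of those 3 STAG1 itself was at the control level, 61.1 CPM against 57.4 and 69.1.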

How the results depend on the processing

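No called member reversed its direction under any alternative run. The number of members called in STAG2 KO was 4, with 7 by DESeq2 (adding DUSP6, DUSP7 and FGFR1), 8 in experiment 1 alone, 2 there with its WT clone libraries summed (chosen after seeing the data) and 3 to 8 when 1 library was left out, the 8 without clone 5 of experiment 2. For EZH2 KO it was 10, with 3 when the WT clone was the only control and 2 to 8 with 1 library left out, the 2 without WT clone 1. For SUZ12 KO it was 13, with 7 to 10 when 1 library was left out (7 without either WT clone library). For STAG1 KO it was 4, with 0 when the WT clone was the only control and 0 to 4 with 1 library left out. The STAG2 and STAG1 effects differed for 2, with 5 by DESeq2 and 1 to 4 with 1 library left out. WT clone against parental gave 1, with 2 by DESeq2, 2 with no filter, 0 where both WT clone libraries of experiment 1 were summed, and 0 to 3 with 1 library left out. The knockdown gave 4, with 2 at a mean of at least 50, where 9 members were tested, and 3 to 4 with 1 library left out. SUZ12 KO against EZH2 KO stayed at 0, and the pairs at 12 to 15 (SK-N-MC) and 12 to 14 (A4573). Genes called in all moved as well, though not always to the same degree or in the same direction. In STAG2 KO they went from 1687 to 3663 in experiment 1 alone, 703 there with its WT clone libraries summed, and 4048 without clone 5. Without WT clone 1 they went from 2377 to 1169 in EZH2 KO and from 3112 to 1874 in SUZ12 KO. Without SUZ12 KO 3, fewer members were called in SUZ12 KO but genes in all rose to 3238. The cause of a changed count was not tested.

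The replicate block in the knockdown gave 5 members called, against 4 without it. The numbers there showed no clear pairing. Deviations of samples with the same number correlated at 0.0257, 0.0372 and 0.00402, and not every sample correlated best with its own number. So few samples cannot exclude a pairing. The depth of 2 counts per library limits FGF1 in STAG2 KO of experiment 1, and the pairs have no replicates.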
